A study of Mus musculus with 10 samples.

Results

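The genes described here are 9 G protein-coupled receptors that tune hormone release from pancreatic islets, taken by symbol from a table of 24475 genes. Islets are the clusters of alpha, beta, delta and pancreatic polypeptide cells that secrete glucagon, insulin, somatostatin and pancreatic polypeptide. RNA was sequenced from islets of C57BL/6 mice in 5 libraries after treatment with REGN1193, a blocking antibody to GCGR (the receptor for glucagon), and in 5 libraries after an isotype control antibody. The antibody libraries are numbered 1 to 5 and the isotype libraries 6 to 10. The labels give no genetic alteration, age, sex, dose, duration or batch for either group, and leave unsaid whether the libraries are of different animals. All p-values therefore measure the spread between these libraries, which may be in part technical.

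Receptors of this kind pass signals from hormones, neurotransmitters and nutrients to the islet cell through G proteins. Those coupled to Gq activate phospholipase C and release calcium from internal stores, those coupled to Gs raise cyclic AMP, and those coupled to Gi/o lower cyclic AMP and open potassium channels. In islets the first 2 routes are known to favour hormone secretion and the last to restrain insulin release. The members are grouped here partly by route and partly by ligand. The vasopressin receptor V1b (Avpr1b), muscarinic receptor M3 (Chrm3) and cholecystokinin A receptor (Cckar) are Gq-coupled. Casr, Ffar1, Gpr119 and Sucnr1 are grouped as nutrient and ion sensors, whatever their route. The Gi/o-coupled receptors are Adra2a for adrenaline and noradrenaline and Galr1 for galanin.

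Levels are RPKM, reads scaled to transcript length and to the size of the library. The estimated depth was 14.5 to 18.0 megareads in antibody libraries and 12.3 to 14.8 megareads in isotype libraries. Markers of islet cells were abundant in both groups, with 12 beta cell genes summing to 199595 to 356892 RPKM under the antibody and 299207 to 473261 RPKM under the isotype control. Gcg, which encodes proglucagon, averaged 63254 ± 11470 RPKM under the antibody and 12300 ± 3618 RPKM under the isotype control (SD, n = 5 each). In bulk islets, a difference in cell number and a difference in RNA per cell cannot be told apart. Of the 9 receptors, 8 had a mean of at least 0.5 RPKM and entered limma's test with all other genes, and Sucnr1 lay under that minimum. Differences are log2 fold changes of log2(RPKM + 0.5), antibody over isotype, with p-values adjusted over 13450 tested genes and a threshold of 0.05.

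Of the 8 tested receptors, 1 rose under the antibody and 0 fell, where 0.409% of all tested genes passed (0.394% higher, 0.0149% lower). At an unadjusted limma p under 0.05 there were 4 receptors, against 7.02% of all tested genes: Avpr1b and Gpr119 higher (2.84% of all genes) and Casr and Cckar lower (4.18%). The groups did not overlap for Avpr1b and Gpr119, as for 1.99% of all tested genes (1.14% with the antibody higher and 0.84% with it lower). The median log2 fold change of the 8 receptors was -0.23, with 6 of 8 negative, against a median of -0.07 over all tested genes, of which 8938 were negative.

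**Figure D1:**
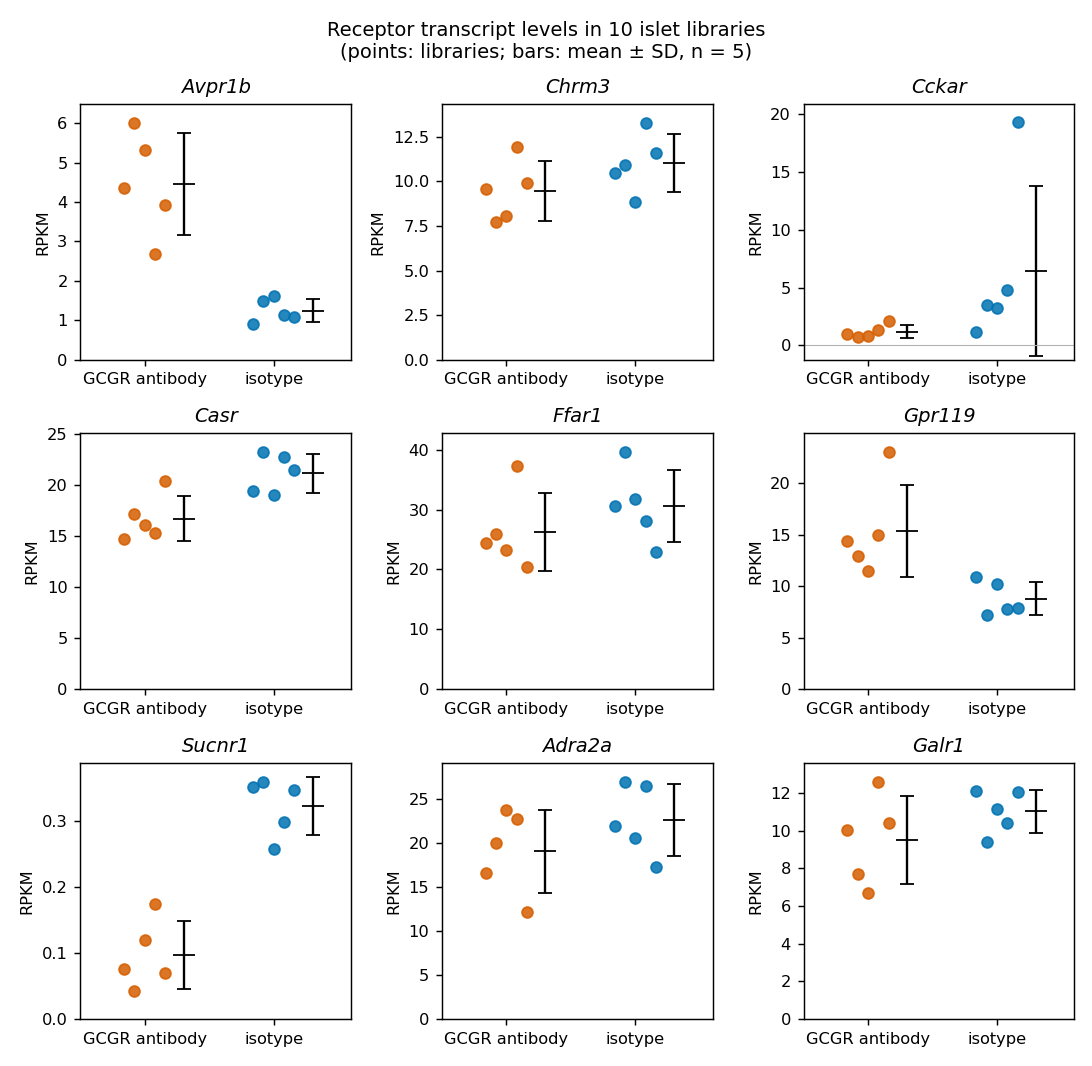
RPKM of the 9 receptors in each library, GCGR antibody left and isotype right, with points for libraries and bars for mean ± SD (n = 5). The groups are apart for Avpr1b and Gpr119 (antibody higher) and for Sucnr1 (antibody lower), and isotype library 10 holds 19.4 RPKM of Cckar.

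Avpr1b rose. This receptor for vasopressin is known from pituitary corticotrophs, where it drives release of adrenocorticotropin, and is also present in islets. It stood at 4.35, 6.01, 5.32, 2.67 and 3.92 RPKM in antibody libraries 1 to 5, and at 0.911, 1.48, 1.61, 1.13 and 1.10 RPKM in isotype libraries 6 to 10. The groups did not overlap, and the lowest antibody value, in library 4, was above the highest isotype value of 1.61 RPKM. The means were 4.45 ± 1.29 RPKM under the antibody and 1.24 ± 0.289 RPKM under the isotype control (SD, n = 5 each), a ratio of 3.58. The log2 fold change was 1.48 (SE 0.20, 95% interval 1.05 to 1.91, limma adjusted p = 0.00453), and 17 tested genes had a higher one. These values rest on an estimated 156 to 356 reads per antibody library and 46.3 to 95.4 reads per isotype library, for a transcript of 4023 bases. Avpr1b passed in all 22 alternative settings in which it could be tested. In GRCm38.p6 the gene (Entrez 26361) spans positions 131599114 to 131612000 of chromosome 1.

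Chrm3, the muscarinic receptor through which acetylcholine raises insulin release, ran from 7.75 to 11.9 RPKM in antibody libraries (median 9.57) and from 8.87 to 13.3 RPKM in isotype libraries (median 10.9). The groups overlapped, and the log2 fold change of -0.22 (SE 0.14, 95% interval -0.52 to 0.09) did not pass (limma adjusted p = 0.819). Chrm3 (Entrez 12671) lies on chromosome 13 from 9875486 to 10361062.

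Cckar, the receptor through which cholecystokinin acts on acinar cells and islets, stood at 1.03, 0.702, 0.808, 1.38 and 2.10 RPKM in antibody libraries 1 to 5. In isotype libraries 6 to 10 it stood at 1.17, 3.47, 3.22, 4.83 and 19.4 RPKM. Isotype library 10 stood far above the next library, isotype library 6 lay among the antibody libraries, and the groups overlapped. The log2 fold change was -1.56 (SE 0.51, 95% interval -2.68 to -0.44, limma adjusted p = 0.448; two-sided exact permutation p = 0.0238). It was -1.05 without isotype library 10 and -1.94 without isotype library 6, neither past the threshold. Cckar (Entrez 12425) lies on chromosome 5 from 53698485 to 53707704.

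Cckar transcript is known to be abundant in acinar cells, so the exocrine markers are given beside it. The 10 acinar genes summed to 3965 to 12580 RPKM in antibody libraries and to 3057 to 17677 RPKM in isotype libraries. The log2 fold changes of all 10 were negative, with a median of -0.57. Isotype library 10 held 11108 RPKM of them, within the range of the other isotype libraries. Isotype library 9, with the lowest acinar sum of all libraries, had 4.83 RPKM of Cckar, the second highest value. The 6 ductal genes summed to 280 to 1065 RPKM in antibody libraries and 315 to 568 RPKM in isotype libraries. Spp1 (401 ± 323 and 185 ± 98.9 RPKM) and Krt7 (197 ± 31.9 and 188 ± 31.1 RPKM) made up most of these sums (antibody and isotype, SD, n = 5 each). Of the 5 tested ductal genes 3 had positive folds and 2 negative, with 0 called. Krt19 had the smallest p of them, at 26.5 ± 11.3 and 69.0 ± 32.4 RPKM (log2 fold change -1.32, SE 0.40, limma adjusted p = 0.364), with overlap. Isotype library 10 had the highest mean log2 level of the ductal genes (4.24), next to antibody library 2 (4.19), which had the lowest Cckar of all libraries. With the acinar or the ductal level as a covariate the log2 fold change of Cckar was -1.53 or -1.49 and did not pass. The part of exocrine tissue in the Cckar values was not tested.

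**Figure D2:**
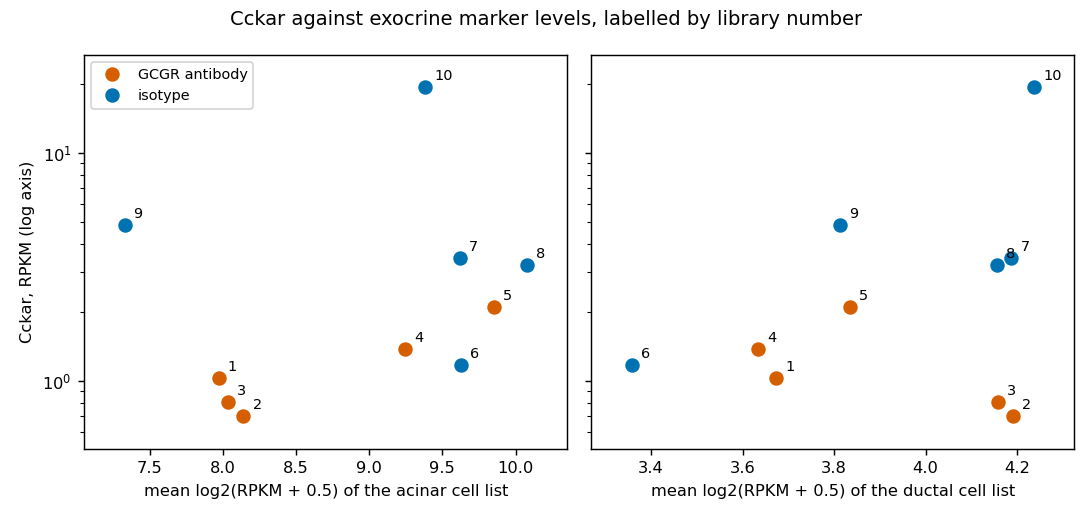
Cckar RPKM (log axis) against the mean log2(RPKM + 0.5) of the acinar list (left) and the ductal list (right), with antibody libraries in orange and isotype libraries in blue, numbered as in the labels. Isotype library 10 is the highest in Cckar and in the ductal level (4.24) without the highest acinar level, and isotype library 9 has the lowest acinar level and 4.83 RPKM of Cckar.

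Among the nutrient and ion sensors, the free fatty acid receptor Ffar1 (GPR40), which amplifies glucose-stimulated insulin release, was the most abundant receptor. It ran from 20.4 to 37.3 RPKM in antibody libraries (median 24.5) and from 22.9 to 39.6 RPKM in isotype libraries (median 30.5). The ranges overlapped almost fully. The difference was -0.22 on the log2 scale, with a 95% interval of -0.60 to 0.16 and an SE of 0.17, and did not pass (limma adjusted p = 0.859). Ffar1 (Entrez 233081) lies on chromosome 7 from 30860568 to 30861470. Its span in the RefSeq table is 903 bases while the matching GENCODE M21 transcript has 4175 bases, and the length behind its RPKM is not given in the sources used here, so its place in the order of levels is uncertain.

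Gpr119, a Gs-coupled receptor for oleoylethanolamide and related lipids that raises cyclic AMP, was higher in every antibody library without passing over all genes. It stood at 14.4, 12.9, 11.5, 15.0 and 23.0 RPKM in antibody libraries 1 to 5, and at 10.9, 7.25, 10.2, 7.78 and 7.91 RPKM in isotype libraries 6 to 10. The groups did not overlap, with antibody library 3 at 11.5 RPKM and isotype library 6 at 10.9 RPKM as the closest pair, and antibody library 5 was the highest. The means were 15.4 ± 4.49 and 8.80 ± 1.62 RPKM (antibody and isotype, SD, n = 5 each), a ratio of 1.74. The log2 fold change was 0.75 (SE 0.18, 95% interval 0.35 to 1.14, limma adjusted p = 0.182). The two-sided exact permutation p was 0.00794, the smallest that 5 against 5 libraries allows. Antibody library 5 also had the lowest beta cell sum of all libraries, 199595 RPKM, and the highest acinar sum of its group, 12580 RPKM; their part in its Gpr119 value was not tested. Over 23 alternative settings the limma adjusted p of Gpr119 ran from 0.0517 to 0.432, and without antibody library 5 its log2 fold change was 0.59. Gpr119 (Entrez 236781) lies on the X chromosome from 48667979 to 48674478.

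Casr, the extracellular calcium-sensing receptor, which also responds to amino acids, stood at 14.7, 17.1, 16.03, 15.3 and 20.3 RPKM in antibody libraries 1 to 5 and at 19.4, 23.2, 19.0, 22.7 and 21.4 RPKM in isotype libraries 6 to 10. In 4 of 5 antibody libraries it lay below every isotype library, and antibody library 5 lay among the isotype libraries. The log2 fold change of -0.34 (SE 0.11, 95% interval -0.58 to -0.09) missed the threshold (limma adjusted p = 0.455; two-sided exact permutation p = 0.0238). With array weights, which count outlying libraries less, Casr was called lower (-0.40, limma adjusted p = 0.0431), as was Cckar (-1.67, limma adjusted p = 0.0359). Casr (Entrez 12374) lies on chromosome 16 from 36490585 to 36562141.

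Sucnr1, the receptor for the citric acid cycle intermediate succinate, was near the detection limit in all libraries. It stood at 0.0752, 0.043, 0.1202, 0.174 and 0.0701 RPKM in antibody libraries 1 to 5 and at 0.351, 0.359, 0.257, 0.299 and 0.346 RPKM in isotype libraries 6 to 10. Every antibody library lay below every isotype library, with means of 0.0965 ± 0.0514 and 0.323 ± 0.0433 RPKM (antibody and isotype, SD, n = 5 each). For a transcript of 1571 bases these values correspond to an estimated 1 to 4 reads per antibody library and 6 to 7 reads per isotype library. The summed reads were 12 under the antibody (exact 95% Poisson interval 6.20 to 21.0) and 34 under the isotype control (23.5 to 47.5), intervals that cover counting error only. The difference of mean log2(RPKM + 0.5) was -0.47 (two-sided exact permutation p = 0.00794). With no filter on low values Sucnr1 passed limma's test over 19832 genes (SE 0.07, limma adjusted p = 0.0249). In that setting 40 genes were called higher and 1, Sucnr1 itself, was called lower. The estimated reads of isotype libraries 6 to 10 were 7.0, 6.9, 6.0, 7.0 and 7.0. Counting error alone usually leaves a wider spread, so the limma SE and adjusted p may be too small. Both groups lie below the pseudocount of 0.5, so the log2 difference understates the ratio of the means, which was 0.299. Sucnr1 (Entrez 84112) lies on chromosome 3 from 60081869 to 60087566.

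Sucnr1 is known from macrophages and adipocytes, so their markers are given beside it. The 6 immune genes summed to 54.6 to 622 RPKM in antibody libraries and 92.4 to 535 RPKM in isotype libraries, with 0 called. The 4 adipocyte genes summed to 0.434 to 2.74 RPKM in antibody libraries and 0 to 0.419 RPKM in isotype libraries, and Lep was at 0 in every isotype library. Their part in the Sucnr1 values was not tested.

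The Gi/o-coupled receptors overlapped between the groups. Adra2a, the alpha-2A adrenergic receptor that restrains insulin release, ran from 12.2 to 23.7 RPKM in antibody libraries (median 20.05) and from 17.3 to 27.0 RPKM in isotype libraries (median 21.9). Its log2 fold change was -0.26 (SE 0.19, 95% interval -0.67 to 0.14, limma adjusted p = 0.845). Galr1, a receptor for galanin, ran from 6.71 to 12.6 RPKM in antibody libraries (median 10.02) and from 9.41 to 12.1 RPKM in isotype libraries (median 11.1). Its log2 fold change was -0.23 (SE 0.16, 95% interval -0.58 to 0.11, limma adjusted p = 0.836). Adra2a (Entrez 11551) lies on chromosome 19 from 54045259 to 54048982 and Galr1 (Entrez 14427) on chromosome 18.

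**Figure D3:**
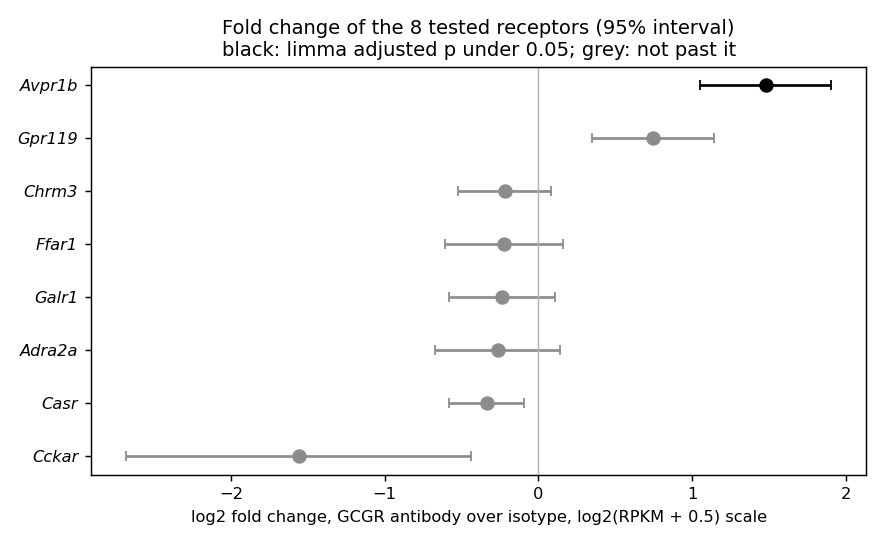
Log2 fold changes of the 8 tested receptors, antibody over isotype, on the log2(RPKM + 0.5) scale, with 95% intervals from limma; black marks an adjusted p under 0.05. Avpr1b at 1.48 is the receptor that passed, and the intervals of Gpr119, Casr and Cckar exclude 0 without passing over all genes.

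The order of mean levels differed between the groups in the places of Gpr119, Avpr1b, Cckar and Chrm3. Galr1 held rank 5 in both groups and was almost level with Chrm3 in both. Under the antibody the mean RPKM ran from Ffar1 (26.3) through Adra2a (19.1), Casr (16.7), Gpr119 (15.4), Galr1 (9.48) and Chrm3 (9.45) to Avpr1b (4.45), Cckar (1.20) and Sucnr1 (0.0965). Neighbours from Ffar1 to Chrm3 overlapped in their library ranges, and the steps from Chrm3 to Avpr1b, Avpr1b to Cckar and Cckar to Sucnr1 did not. Under the isotype control Ffar1 (30.6), Adra2a (22.7) and Casr (21.1) overlapped as neighbours and Casr stood apart from Chrm3 (11.0). Chrm3, Galr1 (11.0), Gpr119 (8.80), Cckar (6.41) and Avpr1b (1.24) then overlapped as neighbours, and Sucnr1 (0.323) stood apart below Avpr1b. Without isotype library 10 the isotype mean of Cckar was 3.17 RPKM (n = 4), and its highest value, 4.83 RPKM, lay below the lowest Gpr119 value, 7.25 RPKM.

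The receptors were next set against the cell types of the islet. The series is about alpha cell hyperplasia, and 8 of 11 tested alpha cell genes rose, with a median log2 fold change of 1.16. Called genes included Ttr (transthyretin, 2.77), Gcg (2.39), Wnk3 (a kinase, 1.39), the transcription factors Irx1 (1.20) and Irx2 (1.16), Gc (vitamin D-binding protein, 1.06) and Smarca1 (a chromatin remodelling ATPase, 0.99). Gc lost its call in 14 of 23 alternative settings, Irx1 in 14 of 22 and Gcg in 1 of 23. Pou3f4 (0.61) and Dpp4 (0.05) did not pass. The isotype mean of Pou3f4 (0.439 RPKM) lies below the minimum of 0.5 RPKM, so it entered the test and the alpha list mean through the antibody libraries. This list was drawn up with earlier results of these libraries known, so its direction is no independent evidence. The mean log2 level of the 11 genes was higher by 1.26 in antibody libraries, and that of the 12 beta cell genes was lower by 0.34 (difference -0.34; two-sided exact permutation p = 0.00794 and 0.0238). Delta cell genes (4 of 4 tested, median log2 fold change 0.70) and pancreatic polypeptide cell genes (2 of 2, median 0.72) also had positive folds, with 0 called. Over the 10 libraries, which share depth and group difference, Avpr1b correlated at r = 0.96 with the alpha list level. It correlated at 0.87 with the delta list level and 0.74 with the pancreatic polypeptide list level. After removal of the group means these values were 0.63, 0.59 and 0.63, against 0.80 for the immune list and 0.73 for the ductal list. For the beta, acinar and Schwann cell or neuron lists they were -0.46, -0.22 and 0.09. The parts of these cell types in the Avpr1b values were not tested.

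For Avpr1b, the log2 level minus the alpha list mean was -3.30 ± 0.34 under the antibody and -3.51 ± 0.17 under the isotype control (SD, n = 5 each), a difference of 0.21 (two-sided exact permutation p = 0.254). Without antibody library 4, which had the lowest Avpr1b of its group, it was 0.35 (exact permutation p = 0.0476). Against Gcg alone the difference of Avpr1b was -0.91 (exact permutation p = 0.00794), since Gcg rose more than the list mean. Gpr119 lay between the lists. Relative to the alpha list its difference was -0.52 (exact permutation p = 0.0952), and relative to the beta list it was 1.09 (exact permutation p = 0.00794), where the groups did not overlap. Its exact permutation p relative to the alpha list was 0.0317 without antibody library 5 and 0.0397 without isotype library 7, with differences of -0.68 and -0.66. Against Gcg alone the difference of Gpr119 was -1.65 (exact permutation p = 0.00794). Against the median of the alpha list without Gcg it was -0.46 (exact permutation p = 0.0397).

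Set against the beta cell genes, Casr, Chrm3, Ffar1, Adra2a and Galr1 did not differ between the groups beyond the spread between libraries. Relative to the beta list mean their differences were 0.00, 0.12, 0.12, 0.08 and 0.11, with two-sided exact permutation p from 0.349 for Ffar1 to 0.992 for Casr. The standard deviations within a group ran from 0.16 to 0.40 on that scale. After removal of the group means, the correlation with the beta list level was -0.65 for Casr and 0.25 for Chrm3. It was 0.78 for Ffar1, 0.66 for Adra2a and 0.28 for Galr1. The part of beta cells in these values was not tested. Relative to the alpha list the same 5 genes differed by -1.48 to -1.60, which follows from the rise of that list. Cckar differed by -1.22 relative to the beta list (exact permutation p = 0.127), with overlap and SDs of 0.54 (antibody) and 1.45 (isotype). Without isotype library 6 that difference was -1.64 (exact permutation p = 0.0317). Relative to the alpha list Cckar differed by -2.82 (exact permutation p = 0.00794), without overlap. These 16 comparisons share 2 list means, and their p-values are not adjusted.

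**Figure D4:**
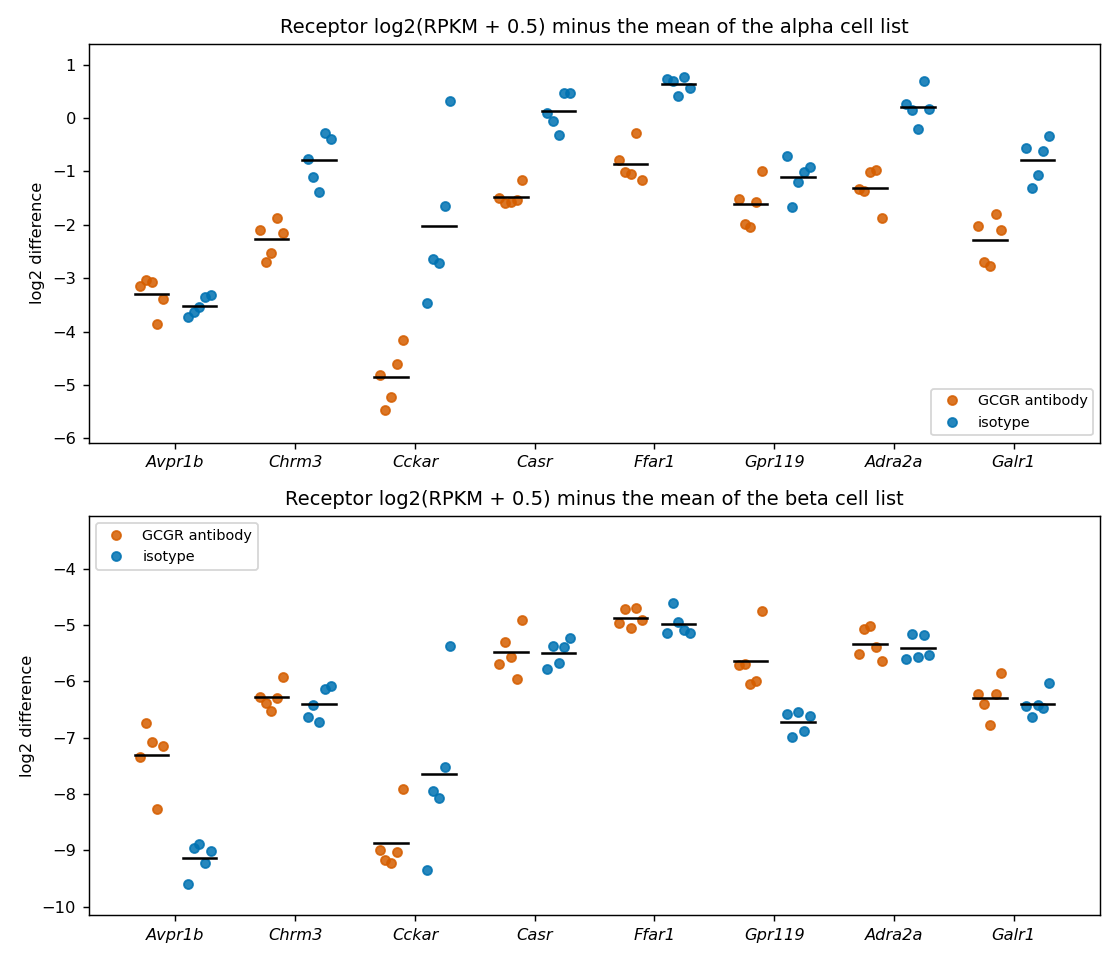
Log2(RPKM + 0.5) of each tested receptor minus the mean of the alpha list (top) and the beta list (bottom), per library, antibody left in orange and isotype right in blue, with lines at the group means. Avpr1b differs by 0.21 on the alpha scale and by 1.82 on the beta scale, and Casr differs by 0.00 on the beta scale.

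The transcripts most like each receptor over the 10 libraries were found by Pearson correlation of the log2 values among all tested genes, a description that carries group difference, depth and composition of the libraries alike. Each was picked for the highest values among 13450 tested genes over 10 libraries. Unrelated genes can also reach such values by chance under this choice, and a chance level was not worked out. For Avpr1b they were AW551984 (r = 0.99), the two-pore potassium channel gene Kcnk3 (0.97) and Gcg (0.97), all called higher. For Gpr119 they were Sepp1 (0.92), Rnr1 (0.92) and Vwde (0.91), of which Vwde was called higher. For Casr they were Mtss1l (0.95), the vitamin D receptor gene Vdr (0.94) and Brsk2 (0.94), and for Chrm3 Satb1 (0.95), Dip2c (0.94) and Pcnx (0.94). For Ffar1 they were Evi5l (0.92), Lrrc46 (0.89) and Cyp4f39 (0.88). For Adra2a they were Ptprf (0.98), Gna11 (0.97), which encodes a G protein of the Gq class, and Abca2 (0.97). For Galr1 they were Pdp1 (0.94), Mtfr1 (0.93) and Xk (0.92). For Cckar they were Rasef (0.98) and the epithelial genes Sprr2a1 and Sprr2a2 (0.97 each), whose rows gave the same correlation and are uncertain as single genes. After removal of the group means the closest transcripts were Tnfrsf1a for Avpr1b (0.98), Prkab1 for Casr (0.94), Rasef for Cckar (0.98), Pcnx for Chrm3 (0.95), Dync1i1 for Ffar1 (0.95), Rbmx2 for Gpr119 (0.96), Ptprf for Adra2a (0.99) and Cox7a1 for Galr1 (0.95).

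Close relatives of the members gave 0 called genes of 13 tested, with a median log2 fold change of -0.07. Another 20 of the 33 listed had means under 0.5 RPKM, among them Avpr1a, Avpr2, Cckbr, Chrm1, Chrm2 and Galr2, and Chrm5 was at 0 in every library. The long-chain fatty acid receptor Ffar4 (GPR120) came closest, at 5.88 ± 1.55 RPKM under the antibody and 2.66 ± 0.511 RPKM under the isotype control (SD, n = 5 each). Its groups did not overlap, and the difference of 0.99 on the log2 scale had an SE of 0.19 (limma adjusted p = 0.0543). Ffar4 passed in 5 of 22 alternative settings, among them without antibody library 5 (1.14, limma adjusted p = 0.00793). The lactate receptor gene Hcar1 (0.988 ± 0.275 and 0.465 ± 0.0845 RPKM, antibody and isotype; log2 fold change 0.61, limma adjusted p = 0.268) did not overlap either, and was called with array weights (0.71, limma adjusted p = 0.0428). The oxytocin receptor gene Oxtr (7.25 ± 1.79 and 4.25 ± 1.26 RPKM, antibody and isotype; 0.72, limma adjusted p = 0.327) overlapped. Galr3 stood at 8.76 ± 2.49 RPKM under the antibody and 10.1 ± 1.39 RPKM under the isotype control, a level close to that of Galr1.

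Downstream of the receptors, the G protein-gated potassium channel subunit Kcnj3 (GIRK1) rose, the 1 called gene among 14 tested of the Gs and Gi/o list (median log2 fold change -0.01). It stood at 1.59 ± 0.288 RPKM under the antibody and 0.417 ± 0.158 RPKM under the isotype control (SD, n = 5 each), without overlap. The difference was 1.20 on the log2 scale with an SE of 0.17 (limma adjusted p = 0.00925), and the limma adjusted p was 0.0516 without antibody library 5 and isotype library 10 together. Its isotype mean lies below the minimum of 0.5 RPKM, so it entered the test through the antibody libraries. Its partner subunit Kcnj6 (0.32, SE 0.14), the Gs subunit Gnas (0.41, SE 0.15) and the Gi subunit Gnai3 (-0.24, SE 0.13) did not pass. Of 18 tested genes of Gq signalling 0 were called. Negative folds were found for 16 of them, and for 8938 of all 13450 tested genes. The median of the list was -0.16, against -0.07 over all genes. The inositol trisphosphate receptor gene Itpr2 stood at 1.75 ± 0.468 RPKM under the antibody and 2.58 ± 0.209 RPKM under the isotype control (log2 fold change -0.48, SE 0.15, limma adjusted p = 0.402), without overlap, and was called lower with array weights (-0.62, limma adjusted p = 0.0231). Stim1, the calcium sensor of internal stores (-0.36, SE 0.13), did not overlap between the groups, and the calcium-activated channel gene Trpm5 (-0.76, SE 0.29) did; neither passed. The Gq subunits Gnaq (-0.02) and Gna11 (-0.11) did not pass.

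Genes for the ligands gave 0 called of 13 tested, with a median of -0.06. Avp averaged 0.0248 RPKM under the antibody and was at 0 in every isotype library. Cck stood at 0.822 ± 0.304 RPKM under the antibody and 0.317 ± 0.226 RPKM under the isotype control (log2 fold change 0.71, SE 0.24, limma adjusted p = 0.487), with overlap, and was called higher with array weights (1.09, limma adjusted p = 0.0396). The isotype means of Cck and Hcar1 lie below 0.5 RPKM, so both entered the test through the antibody libraries. Gal averaged 4.61 ± 2.08 RPKM under the antibody and 3.65 ± 1.09 RPKM under the isotype control (0.23, SE 0.29). Ddc, which makes dopamine and serotonin, was at 113 ± 18.8 RPKM under the antibody and 146 ± 20.3 RPKM under the isotype control (-0.37, SE 0.14, limma adjusted p = 0.578), and the choline transporter gene Slc5a7 also did not pass (0.36, SE 0.18).

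**Figure D5:**
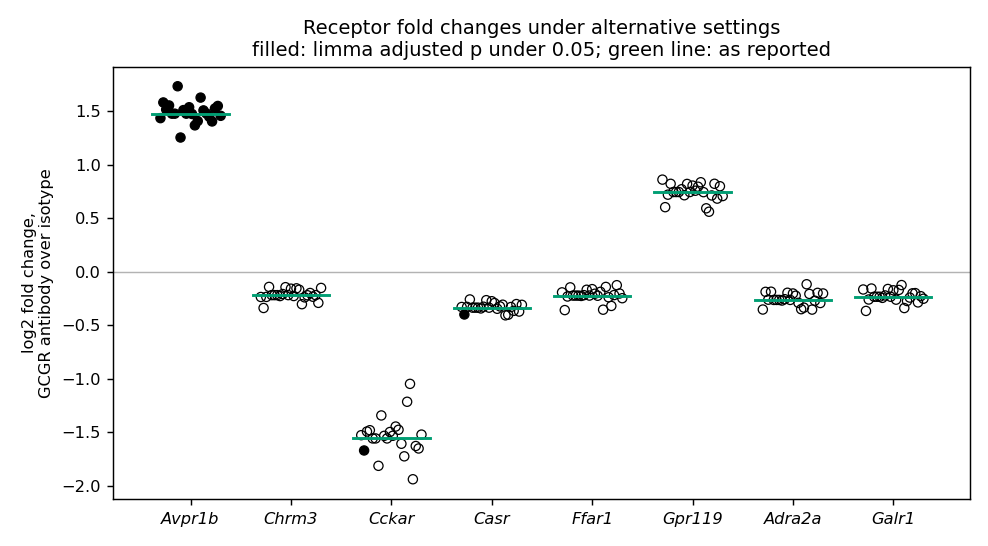
Log2 fold changes of the 8 tested receptors under the alternative settings, with filled points for limma adjusted p under 0.05 and the green line at the value as reported. Avpr1b is filled in all 22 settings that could test it, Casr and Cckar are filled with array weights, and no receptor changes sign.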

How the data were processed

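Islet RNA of 5 GCGR antibody and 5 isotype libraries was measured. Per the labels' protocols, islets came from a Histopaque gradient, miRNeasy reagents were used for RNA and libraries were made with Nextera XT, a kit that does not mark strand. The authors deposited 1 table of RPKM values. The submitters' processing notes name GRCm38, mm10, CASAVA 1.8.2 and FastQC without roles, while for aligner, counter and annotation: not given in the sources used here.

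Values were used as log2(RPKM + 0.5) without scaling. Those genes whose mean over 10 libraries reached 0.5 RPKM were fitted with limma 3.58.1 in R 4.3.3 (variance trend, Benjamini-Hochberg over 13450 genes), a step tested on simulated data. Single values were compared by two-sided exact permutation over 252 assignments. Python 3.11.15, scipy 1.17.1 and matplotlib 3.10.9 served for the rest. Depth and reads were estimated from the steps of low RPKM values and GENCODE M21 transcript lengths, with 68.7% to 73.1% of low values within 0.1 of a whole read. No 2 libraries held identical values. Coordinates come from RefSeq GRCm38.p6, where 9 of 9 members matched by Entrez identifier.

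The members and gene lists were chosen with earlier results of these data known. Named genes were the members, Gcg, called genes and the 3 others of smallest p in each pathway list and the alpha cell list, and the closest correlates; some genes of the alpha cell list are not reported here. Avpr1a, Avpr2, Cckbr, Chrm1, Chrm2, Chrm5, Galr2, Galr3, Gnaq, Gna11, Avp, Gal, Lep, Krt7, Krt19 and Spp1 were named after their values were seen. Comparisons with the beta cell list were added after seeing the data.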

Additional observations from a re-analysis of the deposited data

Results flagged for a closer look

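Cckar in isotype replicate 10 stood at 19.4 RPKM, far from the next isotype library at 4.83 RPKM. The gap took 0.799 of the group's range, above the critical value of 0.71 for 5 samples. Among 18 groups of 5 libraries checked in RPKM (9 receptors in 2 groups) it was the 1 that met this rule. Chance gives about 1 in 20 for each group, so about 1 flag among 18 groups is what chance alone gives. On the log2 scale used for the tests, isotype libraries 10, 9 and 6 stood at 4.31, 2.41 and 0.743, with library 6 the lowest. There the gap from library 10 to library 9 took a smaller part of the range, below the critical value of 0.71.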

How the results depend on the processing

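Of 23 alternative settings, the number of members called higher was 0 with a minimum mean of 5 RPKM, which leaves Avpr1b untested, and 1 in the other 22. The number called lower was 1 with no filter on low values (Sucnr1) and 2 with array weights (Casr and Cckar), and 0 otherwise. With 1 library left out the numbers stayed at 1 and 0, and Avpr1b kept a log2 fold change of 1.37 to 1.63. Over all genes 53 were higher and 2 lower, against 23 and 0 with the minimum of 5 RPKM, 121 and 61 with array weights, 61 and 10 with the ductal covariate, 48 and 5 with the acinar covariate, and 31 to 50 and 0 to 20 with 1 library left out. Quantile normalization gave 59 and 5, and no filter on low values gave 40 and 1. No receptor's log2 fold change turned sign. Relative to the alpha list, Avpr1b turned to -0.91 with Gcg alone as the level set against. Relative to the beta list, the difference of Casr was -0.0025 with a pseudocount of 0.1, -0.0726 without antibody replicate 5 and isotype replicate 10 together, and -0.14 to 0.12 with 1 library left out. That of Adra2a was -0.00092 to 0.15 and that of Galr1 -0.0040 to 0.22 with 1 library left out. Among alpha cell genes, Dpp4 turned to -0.0459 with array weights and -0.0069 to 0.10 with 1 library left out. Gc and Irx1 lost their calls in 14 of 23 and 14 of 22 settings. Gcg lost its call with no filter on low values (limma adjusted p = 0.784) and Kcnj3 without antibody replicate 5 and isotype replicate 10 together (limma adjusted p = 0.0516). AW551984 lost its call in 10 of 22 and Vwde in 4 of 22. The cause of these shifts was not tested. No paired analysis was possible because the 2 groups share no replicate numbers. Depth limits Sucnr1, which rests on 1 to 7 reads per library, and the unknown lengths limit the order of levels.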

Other observations

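Regulators of receptor signalling, 20 tested genes of the RGS proteins, arrestins and receptor kinases, gave 0 called genes and a median log2 fold change of -0.06. Rgs20, which speeds the switching off of Gi-class proteins, stood at 0.667 ± 0.0719 RPKM under the antibody and 0.364 ± 0.0713 RPKM under the isotype control (SD, n = 5 each). Its groups did not overlap, and the difference was 0.44 on the log2 scale with an SE of 0.14 (limma adjusted p = 0.454). Its isotype mean lies below the minimum of 0.5 RPKM, so it entered the test through the antibody libraries, and 19 of 23 alternative settings could test it. Rgs11 stood at 20.1 ± 4.59 RPKM under the antibody and 30.7 ± 8.32 RPKM under the isotype control (-0.58, SE 0.20, limma adjusted p = 0.514), and Rgs17 at 8.35 ± 2.78 and 5.17 ± 1.16 RPKM (antibody and isotype; 0.59, SE 0.24, limma adjusted p = 0.639).

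Within the groups, some receptors moved differently from library to library. After removal of the group means, Avpr1b correlated at r = -0.84 with Galr1 and -0.82 with Chrm3 over 10 libraries, and Gpr119 at -0.71 with Adra2a, while Ffar1 and Adra2a correlated at 0.65 and Chrm3 and Galr1 at 0.62. These pairs were picked as the largest, of either sign, among all pairs of the 8 tested receptors. The other pairs ran from -0.46 to 0.60, and none of these correlations was tested. Antibody library 4 held the lowest Avpr1b (2.67 RPKM) and the highest Galr1, Chrm3 and Ffar1 of its group (12.6, 11.9 and 37.3 RPKM). Antibody library 5 held the highest Gpr119, Casr and Cckar of its group (23.0, 20.3 and 2.10 RPKM) and the lowest Adra2a and Ffar1 (12.2 and 20.4 RPKM). These points share depth and cell composition with the other genes of their libraries.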
